A study of Mus musculus with 30 samples.

Results

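Gene expression in the mouse heart at postnatal day 1 (P1) was compared with the ages on either side of it, embryonic day 18.5 (E18.5, shortly before birth) and postnatal week 1 (1W). The comparison asked which genes lay beyond both flanking ages in the same direction at P1, that is, which changes after birth were transient. It used 9 of the 30 RNA sequencing libraries of a series on heart development, 3 for each of the 3 ages. All of these hearts were labelled wild type and untreated, and RNA was selected with poly-T beads. The labels give neither the strain nor the hour of collection, and nothing in them ties each library to an animal of its own. The p-values therefore cover only the spread between libraries of the same age, taken over all 10 ages of the series, and this spread may be technical. Of 48820 genes in the table of counts, 19280 passed the filter on low counts and were tested.

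A gene was called transient where edgeR's quasi-likelihood test gave an adjusted p under 0.05 both for P1 against E18.5 and for P1 against 1W, with the same sign. By this rule 1520 genes were transiently higher at P1 (7.88% of genes tested) and 1712 were transiently lower (8.88%). Levels are in CPM, that is, counts relative to library size after trimmed-mean (TMM) scaling, and changes are log2 ratios ± SE. The smaller of the 2 log2 changes was taken as the size of a transient change.

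Birth moves the heart from placental supply and low oxygen to breathing, intermittent milk feeding and a higher pressure load. Glucocorticoids, which rise around birth, act through a nuclear receptor that binds DNA and induces genes of metabolism and stress. FoxO transcription factors are held out of the nucleus by insulin signalling and induce genes of fasting and of slowed growth when that signal is low. The heart muscle cells of a newborn mouse still divide for some days before most of them leave the cell cycle, and the cells between them go on dividing.

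The 9 libraries held 25550543 to 45499571 counts, and log2 CPM of libraries of 1 age correlated across genes at 0.983 to 0.991. Mitochondrially encoded transcripts took 3.543 to 4.418% of counts at E18.5, 5.285 to 6.934% at P1 and 7.785 to 8.466% at 1W. The P1 libraries all held Y-linked transcripts without Xist, the RNA of the inactive X, as did E18.5 replicate 2 and 1W replicate 1, while the other 4 flanking libraries held Xist only. With those 5 libraries alone, which leaves a single library at each flank, 446 genes were transiently higher and 613 lower, of which 443 and 610 were among the calls above. Of 168 genes named here, 70 lost their call or contrast with these libraries alone. Counts from them are given below as those of the Y-transcript libraries. With 1 library at each flank fewer genes can reach the threshold, so these counts do not show the size of a change. With these libraries the median log2 contrast was 1.19 for the glucocorticoid list, -1.35 for S phase, -1.27 for G2/M and -1.42 for the Hist genes described below. With all libraries it was 1.36, -1.42, -1.36 and -1.55. Replicate 3 stood nearest to the flanks among the P1 libraries. It was the lowest of the 3 in 55.9% of the transiently higher genes (34.8% of all genes) and the highest in 53.7% of the lower ones (33.9% of all genes). Without replicate 3, 1403 genes were higher and 1720 lower. Replicate 2 was the highest of the 3 in 55.6% of the transiently higher genes (37.2% of all genes). It was the lowest in 45.3% of the lower ones (35.3% of all genes). Without replicate 2, 1150 genes were higher and 1335 lower. The summed level of 12 cardiomyocyte markers was at least 85810 CPM in every one of the 9 libraries, with no marker at 0.

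The contrast of P1 with the mean of both flanks called 3598 genes higher (18.7%) and 3597 lower (18.7%), and it included every transient gene. In 312 of the higher and 264 of the lower genes the P1 mean lay between the flanking means, so P1 was not beyond both of them. The 3 P1 libraries lay entirely above the 6 flanking libraries in 1382 of the 1520 transiently higher genes, against 11.9% of all genes tested. They lay entirely below them in 1615 of the 1712 lower genes, against 12.9% of all genes. These shares restate the calls and are a description. The median change was 1.416-fold for the higher and 1.433-fold for the lower genes, and 261 and 318 genes changed at least 2-fold against both ages. Just inside the threshold stood Zfp783 among the higher genes (larger adjusted p in edgeR 0.04995) and Aarsd1 among the lower (0.04987), and just outside it Oas3 (0.05019) and Nol12 (0.0501).

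**Figure D1:**
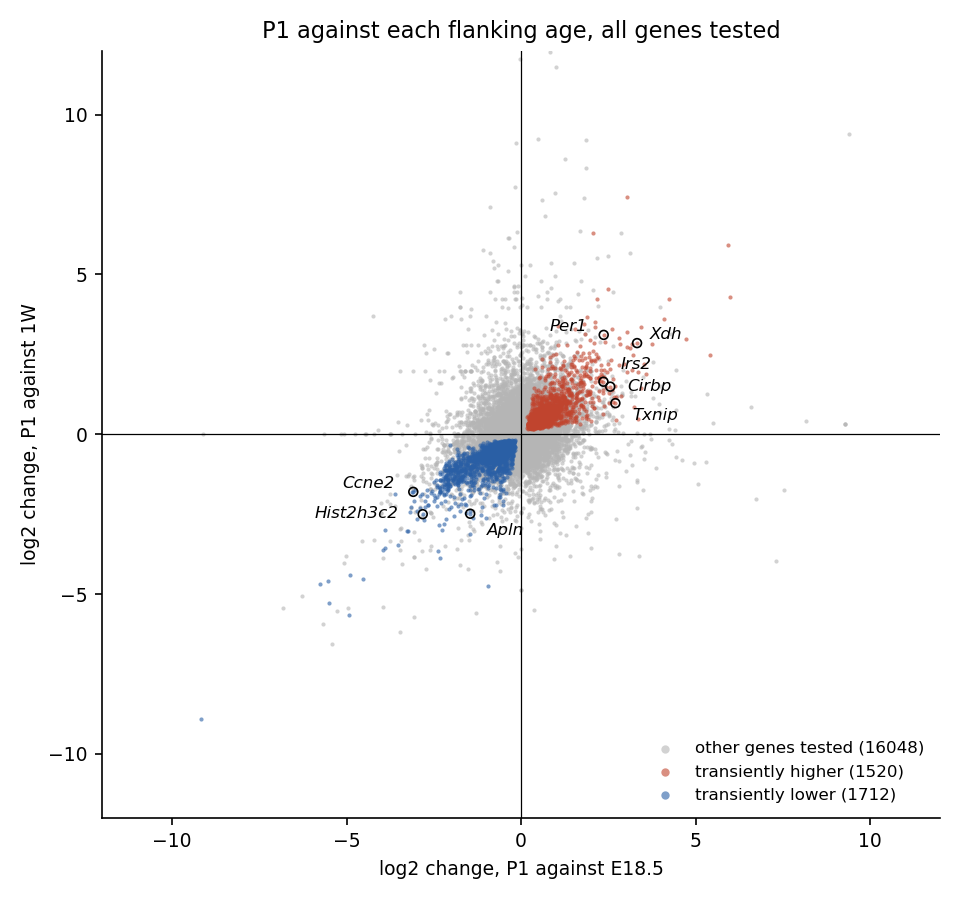
Log2 change of each of 19280 genes at P1 against E18.5 (x axis) and against 1W (y axis). The 1520 transiently higher genes (red) fill the upper right and the 1712 lower genes (blue) the lower left, and rings mark genes described in the text.

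Most transient genes, like most genes tested, did not differ by test between the flanks themselves. Between E18.5 and 1W, 1090 of the 1520 higher genes and 1083 of the 1712 lower genes were not called. Of all genes tested 37.2% were called, so the lower genes were called about as often as all genes and the higher genes less often. Among the transient genes that were called, 299 higher genes were above E18.5 at 1W and 131 below it, while 170 lower genes were above and 459 below. The median share of the P1 change (log2) still present at 1W was 10.8% for the higher and 18.4% for the lower genes. These comparisons share the E18.5 and 1W libraries with the rule, so they describe the shape of the change.

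The other 7 ages, which the rule did not use, placed the P1 level in the course of heart development. P1 was the age of the highest mean in 714 of the 1520 higher genes (47.0%, against 9.3% of all genes). The rule leaves E18.5 and 1W out and thereby raises the share of P1, so the shares here are a description for both directions. The next most frequent age was 8W, with 379 genes (24.9%, against 21.2% of all). P1 was the age of the lowest mean in 664 of the 1712 lower genes (38.8%, against 7.7%), and 8W in 500 (29.2%, against 25.8%). At 2W, 4W and 8W alike, 594 of the higher genes were again above both flanking means and 798 of the lower genes again below them. In these genes the means at 2W, 4W and 8W lay on the same side of E18.5 and 1W as the P1 level did. The same share over all genes tested was not taken, so these counts only describe the members.

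**Figure D2:**
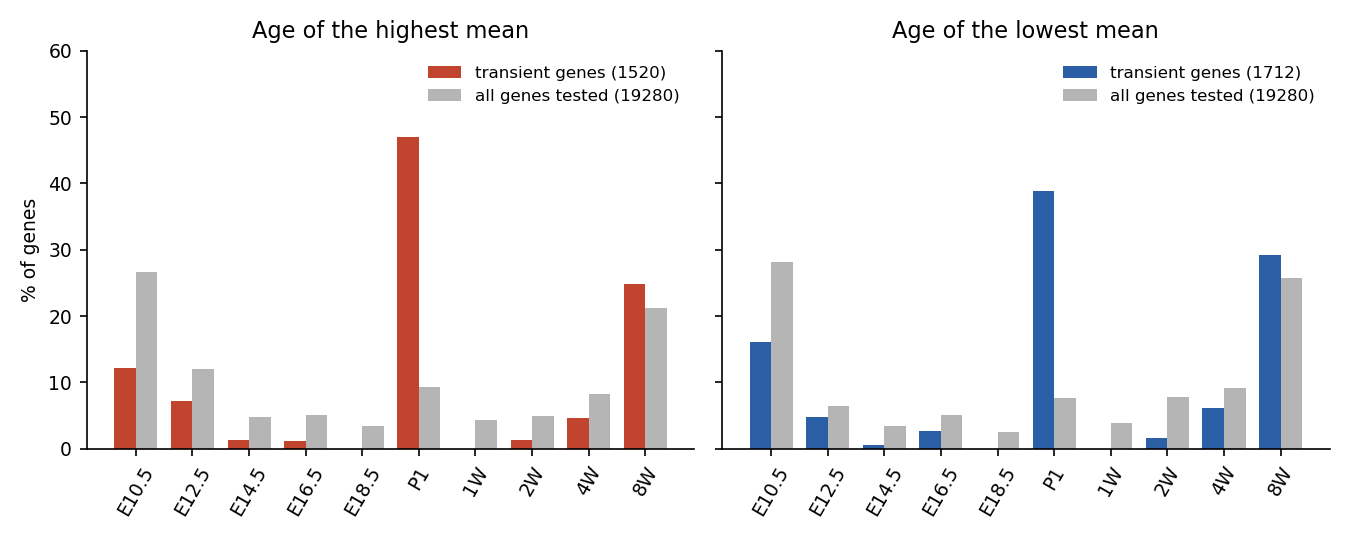
Share of genes (%) whose group mean was highest (left) or lowest (right) at each of the 10 ages, for transient genes (coloured) and all 19280 genes tested (grey). P1 holds 47.0% of the higher and 38.8% of the lower genes, and 8W holds the next largest share of each.

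The 15 transiently higher genes with the largest change held enzymes of purine, alcohol and sulfate metabolism, 4 transcription regulators, extracellular matrix proteins and a cold-inducible RNA-binding protein. Xdh encodes xanthine dehydrogenase, an enzyme of purine breakdown (chromosome 17, 73883895 to 73950196, GRCm38). It was at 3.8, 4.42 and 4.04 CPM at E18.5, 46.2, 63.4 and 14.03 at P1 and 6.79, 5.204 and 5.15 at 1W. All P1 libraries were above all flanking ones, with P1 replicate 3 far below the other 2, and the log2 change was 3.32 ± 0.40 against E18.5 and 2.85 ± 0.38 against 1W (edgeR adjusted p = 2e-06 and 9.09e-06). Timp4, an inhibitor of matrix metalloproteinases, was at 2.54, 4.7 and 3.36 CPM at E18.5, 31.1, 31.3 and 12.5 at P1 and 3.72, 3.14 and 2.46 at 1W. Its log2 change was 2.79 ± 0.35 against E18.5 and 3.01 ± 0.35 against 1W (edgeR adjusted p = 1.73e-06 and 8.35e-07). Both genes then reached their highest mean at 8W, at 149.7 CPM for Xdh and 41.8 CPM for Timp4.

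The P1 libraries of Cirbp and Irs2 lay close together. Cirbp, an RNA-binding protein first known from cells kept below body temperature, was at 17.1, 17.1 and 16.1 CPM at E18.5, 93.5, 99.2 and 102 at P1 and 36.3, 36.2 and 32.5 at 1W. The P1 levels did not overlap with either flank, P1 was the highest of the 10 ages, and the log2 change was 2.56 ± 0.12 against E18.5 and 1.49 ± 0.12 against 1W (edgeR adjusted p = 1.74e-16 and 1.69e-11). Rbm3, the related cold-inducible protein, was named after its values were seen and rose less, at 147, 141 and 129.8 CPM at E18.5, 201, 207 and 247 at P1 and 164, 174 and 166 at 1W, with a log2 change of 0.65 ± 0.11 against E18.5 and 0.38 ± 0.11 against 1W (edgeR adjusted p = 2.86e-05 and 0.00959). Without P1 replicate 3 its smaller change was 0.26 and its call was lost (adjusted p = 0.1, edgeR).

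In the other leading genes P1 was likewise above both flanks. Lrrc10, a leucine-rich repeat protein of heart muscle, was at 39.5, 41.4 and 41.2 CPM at E18.5, 158, 235 and 137 at P1 and 58.9, 56.4 and 56.4 at 1W. Ccn2, the connective tissue growth factor, was at 136, 117 and 136 CPM at E18.5, 505, 657 and 359.6 at P1 and 103, 165 and 184 at 1W, and its P1 libraries lay far above all 6 others. The log2 change was 1.97 ± 0.21 against E18.5 and 1.75 ± 0.21 against 1W (edgeR adjusted p = 1.31e-07 and 7e-07). The related matricellular gene Ccn1 was at 28.5, 27.2 and 27.9 CPM at E18.5, 111, 84.7 and 65.98 at P1 and 41.4, 58.8 and 52.3 at 1W. The stress-induced transcription factor Atf3 was at 11.2, 9.17 and 16.8 CPM at E18.5, 47.05, 50.9 and 26.5 at P1 and 4.83, 12.2 and 11.8 at 1W, and Csrnp1, a nuclear protein induced with immediate early genes, at 7.77, 7.84 and 7.17 CPM at E18.5, 27.7, 31.3 and 23.5 at P1 and 5.46, 7.17 and 6.09 at 1W. Sult1a1 (a sulfotransferase), Adh1 (an alcohol and retinol dehydrogenase), Spock2 (a matrix proteoglycan), Cd163 (a haptoglobin-haemoglobin receptor of macrophages) and Dpep1 (a membrane dipeptidase) completed the set with Per1 and Zbtb16, described below. Their smaller log2 changes ran from 1.5 for Dpep1 to 1.94 for Sult1a1. None of these 15 genes lost its call in any of the alternatives run.

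**Figure D3:**
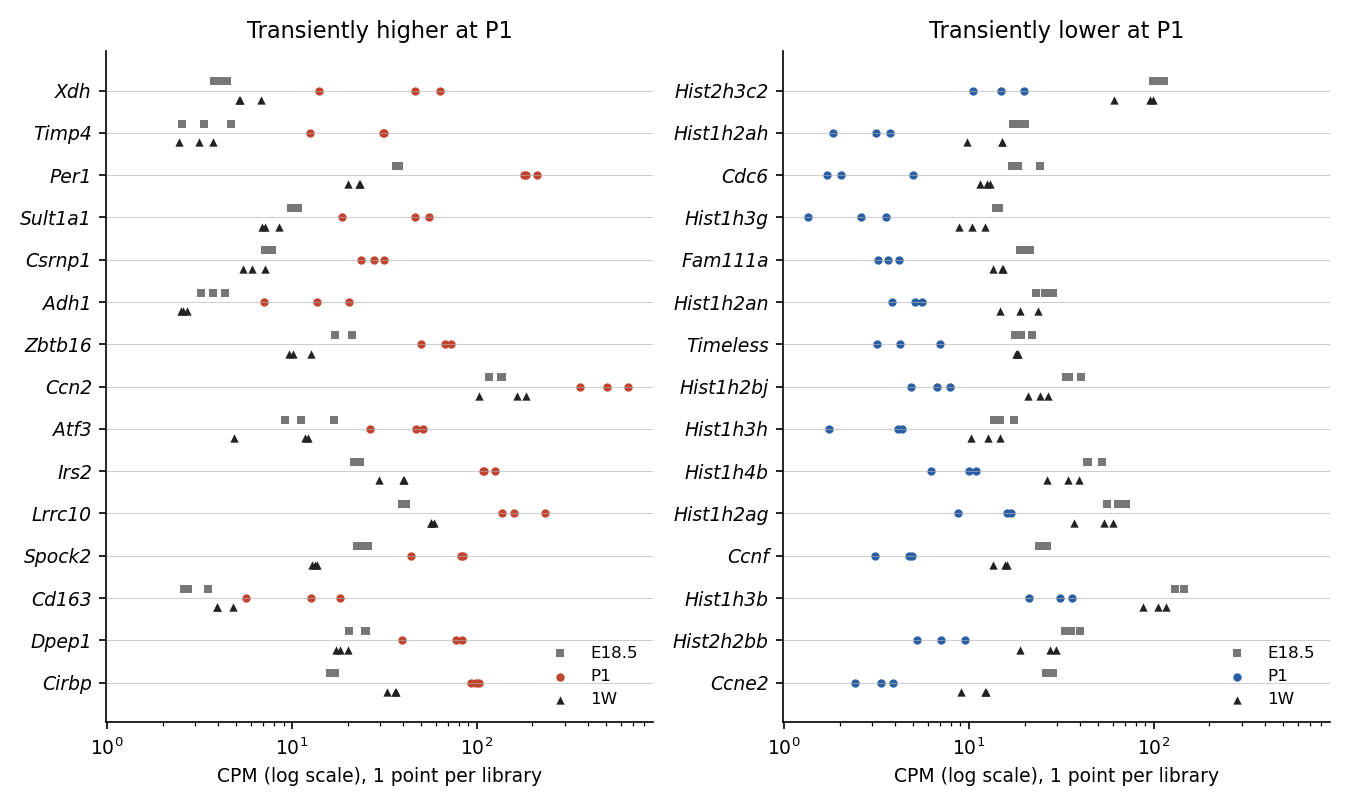
CPM (log scale) in each of the 9 libraries for the 15 leading transiently higher genes (left) and the 15 leading lower genes (right), with E18.5 as squares, P1 as circles and 1W as triangles. The 3 P1 points lie on one side of the 6 flanking points in every row because leading genes were chosen to have no overlap, and among the lower genes 10 of the 15 are histone genes.

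Genes known to respond to glucocorticoids were higher at P1 than at both flanks. Of 26 members tested, 16 were transiently higher and none lower, with a median log2 contrast of 1.36 where the median of all genes was 0.015. The count was 12 to 17 with each library left out, and 10 with the Y-transcript libraries alone. Zbtb16, a zinc finger repressor, was at 17.1, 17.1 and 21.2 CPM at E18.5, 66.9, 72.2 and 50.1 at P1 and 9.65, 10.2 and 12.8 at 1W, and the log2 change was 1.77 ± 0.25 against E18.5 and 2.53 ± 0.26 against 1W (edgeR adjusted p = 7.91e-06 and 1.26e-07). Klf15, a regulator of amino acid and lipid use in heart muscle, was at 14.7, 16.1 and 14.2 CPM at E18.5, 39.5, 41.8 and 23.3 at P1 and 8.28, 7.89 and 7.76 at 1W, and its P1 libraries lay above all 6 others. The log2 change was 1.21 ± 0.13 against E18.5 and 2.13 ± 0.14 against 1W (edgeR adjusted p = 1.41e-08 and 3.86e-13).

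Klf9, which is also induced by thyroid hormone, was at 9.69, 10.7 and 11.7 CPM at E18.5, 60.1, 67.7 and 58.3 at P1 and 30.7, 34.4 and 28.6 at 1W. Tsc22d3, the anti-inflammatory protein GILZ, was at 79.6, 74.3 and 73.9 CPM at E18.5, 113, 151 and 99.2 at P1 and 59.8, 59.03 and 55.3 at 1W, with P1 above both flanks in every library. Sgk1, a kinase that regulates sodium channels, was at 42.4, 39.5 and 38.1 CPM at E18.5, 124, 110.5 and 85.1 at P1 and 48.2, 57.7 and 51.5 at 1W, and its log2 change was 1.41 ± 0.10 against E18.5 and 1.02 ± 0.10 against 1W (edgeR adjusted p = 4.41e-13 and 5.3e-10). Ddit4, an inhibitor of the growth kinase mTORC1, and Cebpd, a transcription factor of the acute phase, rose with smaller log2 changes of 1.06 and 1.06. Fkbp5, a co-chaperone of the receptor, was at 31.8, 31.9 and 28.2 CPM at E18.5, 59.5, 81.97 and 26.8 at P1 and 13.2, 11.7 and 13.7 at 1W. P1 replicate 3 thus stood below every E18.5 library, against the direction of the call. Its log2 change was 0.87 ± 0.26 against E18.5 and 2.12 ± 0.27 against 1W (edgeR adjusted p = 0.0101 and 2.41e-06), and without P1 replicate 2 the smaller change was 0.49 and not called (adjusted p = 0.126, edgeR). The metallothionein Mt2 was at 5.23, 6.305 and 6.97 CPM at E18.5, 13.5, 15.4 and 9.57 at P1 and 1.41, 0.804 and 1.48 at 1W, and its call was lost without any of 4 libraries (E18.5 replicates 1 and 2, P1 replicates 1 and 2; adjusted p 0.0607 to 0.0946, edgeR). The receptor gene Nr3c1 was at 103, 103 and 109 CPM at E18.5, 126, 116 and 137 at P1 and 186, 181 and 182 at 1W, between its flanks. As a mean over the list, P1 libraries stood at 0.644 to 1.273 on centred log2 CPM, E18.5 at 0.02 to 0.142 and 1W at -0.558 to -0.484. The list mean then rose again, to 0.196 to 0.377 at 2W, 0.828 to 0.904 at 4W and 0.977 to 1.149 at 8W.

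Promoter sequence from RefSeq (GRCm38.p6), the 250 bases before each start, was searched on both strands for the palindromic glucocorticoid response element GNACANNNTGTNC. The table matched 1107 of the 1520 higher and 1315 of the 1712 lower genes. The element was present in 0.775% of 1419 promoters of transiently higher genes (11 promoters), 0.19% of 1582 promoters of lower genes (3), 0.337% of promoters of genes tested and 0.387% of all 32851 promoters in the table. Of 23 promoters of the 14 matched list members that rose, 1 held it, at 1 of the 6 starts listed for Sgk1. Txnip, described below, also held it. The matches are printed because both genes rose at P1, with the element in capitals. The Sgk1 stretch is chr10:21993682-21993734, plus strand, and the Txnip stretch is chr3:96557765-96557817, plus strand, where an antisense non-coding gene, Gm15441, is also annotated.
Sgk1: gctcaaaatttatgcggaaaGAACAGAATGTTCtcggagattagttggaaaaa
Txnip: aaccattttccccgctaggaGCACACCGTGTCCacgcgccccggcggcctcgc

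The circadian clock list held 12 transiently higher genes and 1 lower gene among 21 tested, with a median log2 contrast of 0.80. The count of higher genes was 11 to 13 with each library left out and 8 with the Y-transcript libraries alone. The labels give no hour of collection, so the age and the time of day cannot be told apart for these genes or for the glucocorticoid list, which also holds Per1. Per1, a repressor of the clock that glucocorticoids also induce (chromosome 11, 69095217 to 69109960, GRCm38), was at 37.9, 36.3 and 36.96 CPM at E18.5, 184, 210.4 and 179.7 at P1 and 20.2, 23.4 and 22.9 at 1W. The P1 libraries were close together and far above both flanks, and P1 was the highest of the 10 ages. The log2 change was 2.37 ± 0.12 against E18.5 and 3.11 ± 0.13 against 1W (edgeR adjusted p = 2.68e-15 and 4.77e-17). Per2, its paralog, was at 18.6, 19.1 and 18.9 CPM at E18.5, 45.04, 47.1 and 37.1 at P1 and 12.9, 13.3 and 15.9 at 1W, and Ciart, a further repressor of the clock, at 0.697, 1.17 and 1.19 CPM at E18.5, 4.45, 5.67 and 6.33 at P1 and 0.524, 0.628 and 1.03 at 1W, again without overlap.

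The output arms of the clock rose too. Nr1d1, the heme receptor REV-ERB alpha, was at 6.48, 5.41 and 6.49 CPM at E18.5, 37.6, 30.4 and 53.4 at P1 and 17.7, 19.1 and 17.4 at 1W, and its log2 change was 2.73 ± 0.17 against E18.5 and 1.16 ± 0.16 against 1W (edgeR adjusted p = 5.69e-13 and 1e-06). Nr1d2, its paralog, was at 38.6, 40.2 and 38.5 CPM at E18.5, 95.3, 102 and 123 at P1 and 86.9, 75.9 and 81 at 1W. The D-box activator Tef was at 46.5, 48.6 and 43.6 CPM at E18.5, 112, 139 and 112 at P1 and 80.7, 79.5 and 75.1 at 1W, Cry2, a partner of the Per proteins, at 19.6, 18.02 and 16.8 CPM at E18.5, 45.6, 48.6 and 48.3 at P1 and 34.4, 32.9 and 35.2 at 1W, and the D-box repressor Nfil3 at 25.8, 25.98 and 25.03 CPM at E18.5, 44.3, 52.3 and 36.3 at P1 and 25.4, 28.1 and 22.3 at 1W. In each of these the 3 P1 libraries were above all 6 others. Dbp, another D-box activator, was at 7.81, 8.896 and 8.07 CPM at E18.5, 25.96, 28.3 and 36.6 at P1 and 22.7, 20.5 and 20.7 at 1W, where P1 replicate 3 was the highest. Without that library its smaller change was 0.33 and not called (adjusted p = 0.0971, edgeR). Bhlhe40, the member called lower, was at 48.5, 48.2 and 46.4 CPM at E18.5, 25.8, 32.9 and 46.6 at P1 and 43, 49.05 and 51.7 at 1W and lost its call without any of 6 of the 9 libraries. The core activators did not move with them. Arntl was at 13.8, 14.1 and 13.5 CPM at E18.5, 18.2, 13.2 and 12.8 at P1 and 18.8, 17.3 and 17.97 at 1W and Clock at 70.6, 74.1 and 83.5 CPM at E18.5, 83.3, 72.5 and 85.9 at P1 and 95.5, 91.7 and 101 at 1W, and neither passed the test against E18.5 (adjusted p = 0.562 and 0.586, edgeR).

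The E-box CACGTG, the site of the clock activators, was in 4 of 15 promoters of the 10 matched clock genes that rose (26.7%), 5 of 23 promoters of the matched glucocorticoid genes that rose (21.7%), 8.1% of promoters of all transiently higher genes and 6.57% of lower genes. Promoters of genes tested held it in 7.74% and all promoters of the table in 6.02%. The D-box (TTATGTAA or TTACGTAA) was in none of those 15. The stretches below show the E-boxes, in capitals, of the 2 clock genes with the largest transient change. The Per1 stretch, chr11:69098763-69098808 on the plus strand, lies before 1 of 2 listed starts, and the Ciart stretch is chr3:95882247-95882364 on the minus strand with 3 E-boxes.
Per1: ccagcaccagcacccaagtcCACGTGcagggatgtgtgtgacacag
Ciart: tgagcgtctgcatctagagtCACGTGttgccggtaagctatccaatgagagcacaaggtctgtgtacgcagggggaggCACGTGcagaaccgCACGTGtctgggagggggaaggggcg

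Genes of the FoxO and fasting response formed the third list that was higher at P1 than at both flanks. As a mean over the list on centred log2 CPM, P1 libraries stood at 0.288 to 0.713 and 1W at -0.094 to 0.001. The mean then rose to 0.467 to 0.667 at 2W, 0.717 to 0.77 at 4W and 1.011 to 1.102 at 8W. P1 was therefore not the highest age of this list. Of 26 tested, 15 were transiently higher and none lower, with a median log2 contrast of 0.54 (14 to 15 with each library left out, 11 with the Y-transcript libraries alone). Irs2, which couples the insulin receptor to its kinases, was at 21.5, 23.2 and 21.7 CPM at E18.5, 107, 125 and 109.5 at P1 and 29.4, 39.6 and 40.1 at 1W. The log2 change was 2.36 ± 0.22 against E18.5 and 1.65 ± 0.22 against 1W (edgeR adjusted p = 3.2e-08 and 3.59e-06), and P1 was its highest age. Txnip, which inhibits thioredoxin and glucose uptake, was at 270.5, 270.0 and 245 CPM at E18.5, 1775, 1920.0 and 1424 at P1 and 960.1, 828 and 817 at 1W. It overlaps an antisense gene and the strand setting of the counts is not given in the sources used here. Its log2 change was 2.70 ± 0.13 against E18.5 and 0.97 ± 0.12 against 1W (edgeR adjusted p = 1.18e-16 and 1.51e-07). Sesn1, an inhibitor of mTORC1, was at 58.4, 59.3 and 58.7 CPM at E18.5, 139, 184 and 94.95 at P1 and 62.2, 64.8 and 60.9 at 1W, and Pik3ip1, an inhibitor of PI3 kinase, at 14.3, 15.6 and 15.04 CPM at E18.5, 35.6, 53.3 and 35.7 at P1 and 21.5, 18.4 and 14.7 at 1W. Foxo3 itself was at 99.03, 96.6 and 102 CPM at E18.5, 186, 243 and 131 at P1 and 112, 112 and 112 at 1W.

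Autophagy genes belonged to the same list. Map1lc3b, the LC3 protein of the autophagosome membrane, was at 87.2, 87.4 and 82.5 CPM at E18.5, 210.2, 241 and 171 at P1 and 135, 130.2 and 123 at 1W, and Gabarapl1, of the same family, at 23.8, 26.1 and 24.9 CPM at E18.5, 49.7, 69.7 and 43.1 at P1 and 30.4, 28.9 and 27.7 at 1W. All P1 libraries were above all flanking ones in both. Among 19 genes of the IGF and insulin axis, 5 were transiently higher (Irs1, Irs2, Pik3r1, Igf1r and Igfbp6) and none lower, which became 3 without P1 replicate 2 and 2 with the Y-transcript libraries alone. Pik3r1, the regulatory subunit of PI3 kinase, was at 86.8, 87.8 and 88.6 CPM at E18.5, 126, 129 and 112 at P1 and 86.6, 75.9 and 81.2 at 1W and Irs1 at 97.2, 104 and 102 CPM at E18.5, 149, 165 and 110.3 at P1 and 100.4, 102 and 105 at 1W. Igf1r and Igfbp6 lost their calls when single libraries were left out. Glul, glutamine synthetase, named after its values were seen, was at 117, 101 and 101 CPM at E18.5, 478, 598 and 231 at P1 and 186, 204 and 204 at 1W, with a log2 change of 2.04 ± 0.25 against E18.5 and 1.14 ± 0.24 against 1W (edgeR adjusted p = 1.06e-06 and 0.000784).

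Immediate early genes, which are induced within minutes of a stimulus, rose in part. Of 36 tested, 10 were transiently higher and 1 lower (Ier3), with a median log2 contrast of 0.36. Besides Atf3, Csrnp1, Ccn1 and Ccn2, these included Nr4a1, an orphan nuclear receptor, at 8.57, 6.97 and 7.9 CPM at E18.5, 24.1, 25.2 and 20.4 at P1 and 8.303, 13.1 and 12.98 at 1W. Klf10 was at 25.9, 24.6 and 22.4 CPM at E18.5, 85.2, 88.5 and 75.6 at P1 and 51.4, 43.6 and 42.8 at 1W and Klf6 at 76.3, 78.5 and 79.5 CPM at E18.5, 139, 121 and 113 at P1 and 67.1, 73.8 and 80.6 at 1W, both zinc finger factors of growth arrest, with no overlap between P1 and the flanks. Fos, a subunit of AP-1, was different, at 3.49, 2.96 and 2.99 CPM at E18.5, 11.2, 7.72 and 10.1 at P1 and 8.16, 12.1 and 9.73 at 1W. It was higher than at E18.5 (log2 change 1.62 ± 0.32, adjusted p = 0.000326, edgeR) and was not called against 1W (adjusted p = 0.913).

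The inflammation list held 6 transiently higher genes and 1 lower gene of 27 tested. Its median log2 contrast was 0.15, and 0.1 with the Y-transcript libraries alone. C3, the central complement protein, was at 71.95, 106 and 88.5 CPM at E18.5, 200.1, 279 and 201 at P1 and 71.5, 95.5 and 87.1 at 1W, and its log2 change was 1.35 ± 0.21 against E18.5 and 1.42 ± 0.21 against 1W (edgeR adjusted p = 2.86e-05 and 1.92e-05). Serpina3n, a protease inhibitor, was at 0.941, 1.38 and 1.47 CPM at E18.5, 5.502, 6.69 and 2.12 at P1 and 1.27, 0.9804 and 0.805 at 1W, Lcn2, an iron-carrier binding protein, at 0.523, 0.436 and 0.226 CPM at E18.5, 1.81, 2.56 and 1.51 at P1 and 0.386, 0.603 and 0.649 at 1W, and Socs3, an inhibitor of cytokine signalling, at 5.26, 5.14 and 5.78 CPM at E18.5, 7.71, 9.59 and 7.45 at P1 and 4.94, 5.68 and 4.95 at 1W. In these 4 genes the P1 libraries lay above all flanking ones. Neutrophil markers moved beside them. Of 8 tested, S100a8, S100a9 and Retnlg were transiently higher, and 1 of them without P1 replicate 2. The sum of all 12 listed was 2.652 to 4.636 CPM at E18.5, 19.1 to 26.56 at P1 and 7.2 to 10.23 at 1W, with none at 0 in all 9 libraries. S100a8, a calcium-binding protein abundant in neutrophils, was at 0.349, 0.779 and 0.395 CPM at E18.5, 2.603, 3.96 and 2.54 at P1 and 0.634, 0.8799 and 0.694 at 1W. Of 6 mast cell markers tested, 3 were transiently higher (Tpsb2, Hdc and Cma1) and 1 lower (Kit), and 1 was higher without E18.5 replicate 2 or 3 or P1 replicate 2 and none with the Y-transcript libraries alone. The sum of all 8 listed was 62.23 to 67.73 CPM at E18.5, 56.3 to 79.88 at P1 and 55.38 to 56.72 at 1W, with none at 0. The part of neutrophils and mast cells in the inflammation genes was not tested. In bulk tissue, fewer cells of a type and less RNA per cell cannot be told apart.

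Liver markers also moved, mainly in P1 replicate 2. Their sum over 9 genes was 55.92 to 58.63 CPM at E18.5, 58.47 to 159.2 at P1 and 31.08 to 32.44 at 1W, with none at 0 in all libraries, and 2 of 8 tested (Ahsg and Trf) were transiently higher. Ahsg, fetuin A, was at 17.7, 18.4 and 17.04 CPM at E18.5, 33.2, 50.6 and 16.4 at P1 and 5.93, 6.11 and 5.79 at 1W. Without P1 replicate 2 its smaller change was 0.48 and not called (adjusted p = 0.123, edgeR). Tat, a liver enzyme of tyrosine breakdown in the glucocorticoid list, was at 0.244, 0.206 and 0.0846 CPM at E18.5, 1.02, 1.98 and 0.321 at P1 and 0.1103, 0.151 and 0.0671 at 1W, also highest in that replicate, and kept its call without it (log2 1.90, adjusted p = 0.0273, edgeR). The part of liver RNA in the glucocorticoid list was not tested. Of 12 macrophage markers, C1qb, C1qc and Cd163 were transiently higher, and 1 without P1 replicate 2, with sums of 125.3 to 148.8 CPM at E18.5, 166.1 to 235.5 at P1 and 184.9 to 199.2 at 1W and none at 0.

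Antioxidant genes were split. Of 24 tested, 8 were transiently higher and 2 lower, and the count of higher genes was 5 without P1 replicate 2 or 1W replicate 3, 4 with a term for sex and 2 with the Y-transcript libraries alone. Gstm1, a glutathione transferase, was at 35, 39.5 and 32.5 CPM at E18.5, 91.5, 93.2 and 59.3 at P1 and 22.6, 26.3 and 23.8 at 1W, and its log2 change was 1.19 ± 0.14 against E18.5 and 1.75 ± 0.14 against 1W (edgeR adjusted p = 7.49e-08 and 1.21e-10). Gsta4, which clears lipid peroxidation products, was at 30.1, 27.9 and 27.9 CPM at E18.5, 51.5, 53.9 and 49.4 at P1 and 30.6, 34.9 and 30.6 at 1W, and Hmox1, heme oxygenase, at 7.63, 9.95 and 8.27 CPM at E18.5, 20.4, 19.1 and 18.01 at P1 and 13.4, 14.6 and 12.6 at 1W. The lower genes were Nfe2l2, which encodes the regulator NRF2 of this pathway, at 53.02, 53.7 and 60.4 CPM at E18.5, 41.5, 42.5 and 43.5 at P1 and 52, 56.99 and 56.7 at 1W, and Txnrd1, one of its targets, at 77.7, 71.97 and 71.9 CPM at E18.5, 57.2, 55.9 and 60.6 at P1 and 65.7, 66.3 and 69.6 at 1W, whose call was lost without single libraries.

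Vasoactive genes and growth factors changed in both directions. Apln, the ligand of the apelin receptor, had the largest fall among them, at 23.1, 22.6 and 20.6 CPM at E18.5, 5.11, 7.17 and 11.8 at P1 and 40.3, 45.7 and 49.2 at 1W. The P1 libraries were all below the flanks, 1W was its highest age, and the log2 change was -1.46 ± 0.19 against E18.5 and -2.48 ± 0.19 against 1W (edgeR adjusted p = 5.12e-07 and 6.13e-11). Vegfa, the main endothelial growth factor, was at 124, 126 and 121 CPM at E18.5, 90.5, 68.5 and 73.8 at P1 and 163, 168 and 167 at 1W, with a log2 change of -0.67 ± 0.10 against E18.5 and -1.10 ± 0.10 against 1W (edgeR adjusted p = 1.54e-06 and 1.8e-10), and its receptor gene Flt1 was at 127, 119.8 and 116 CPM at E18.5, 94.1, 84.8 and 87.3 at P1 and 117, 128 and 126 at 1W. Fgf9 was at 4.04, 4.998 and 5.73 CPM at E18.5, 2.603, 2.66 and 4.17 at P1 and 7.53, 7.97 and 7.34 at 1W and Inhba, the activin A subunit, at 3.66, 4.26 and 4.43 CPM at E18.5, 2.31, 1.95 and 2.63 at P1 and 4.36, 4.95 and 5.101 at 1W. Of 18 growth factor ligands these 3 fell and 1 rose, Angpt1, the ligand of TIE2, at 19.6, 25.7 and 25.8 CPM at E18.5, 33.3, 33.2 and 35.7 at P1 and 10.3, 9 and 10.5 at 1W. Of 17 vasoactive genes 5 rose (Agt, Edn1, Ednra, Ednrb and Ramp2) and 2 fell (Apln and Calcrl). The count of rises was 2 with library size alone and 0 with the Y-transcript libraries alone. Agt, angiotensinogen, was at 1.81, 1.995 and 1.72 CPM at E18.5, 4.71, 8.26 and 5.46 at P1 and 3.34, 3.47 and 2.95 at 1W and Edn1, endothelin 1, at 7.36, 6.37 and 6.18 CPM at E18.5, 9.06, 10.1 and 9.86 at P1 and 4.58, 6.64 and 6.85 at 1W.

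Most genes of fatty acid use rose at P1 without being transient. Against E18.5 alone, 3808 genes were higher at P1 (19.8% of genes tested) and 3671 lower (19%). Of 30 PPAR targets, 22 were higher than at E18.5 without being transient. Another 5 were transiently higher (Cpt1a, Acot1, Acot2, Txnip and Ehhadh) and 1 was transiently lower (G0s2). The median log2 contrast of the list was 0.83, and 0.86 with the Y-transcript libraries alone. Ehhadh also lost its call without single libraries. Pdk4, which blocks pyruvate entry to mitochondria, was at 31.6, 30.9 and 34.05 CPM at E18.5, 524, 403 and 327 at P1 and 432, 389 and 423 at 1W. It was not called between P1 and 1W (adjusted p = 0.97, edgeR).

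The transiently higher members overshot their 1W level. Acot1, an acyl-CoA thioesterase, was at 9.13, 9.22 and 9.45 CPM at E18.5, 97.5, 84.3 and 78.5 at P1 and 47.2, 49.9 and 47.4 at 1W, and its log2 change was 3.23 ± 0.14 against E18.5 and 0.85 ± 0.12 against 1W (edgeR adjusted p = 1.54e-17 and 2.29e-06). Cpt1a, the liver form of the carnitine palmitoyltransferase that admits fatty acids to mitochondria, was at 75.7, 68.5 and 66.6 CPM at E18.5, 289.5, 281 and 278 at P1 and 214, 219 and 197 at 1W. P1 was the highest of the 10 ages for both. Pnpla2, the triglyceride lipase ATGL, was at 40.2, 45.3 and 39.2 CPM at E18.5, 171, 182 and 99.9 at P1 and 96.2, 105 and 101 at 1W, and its inhibitor G0s2 moved the other way, at 19.4, 20.8 and 23.2 CPM at E18.5, 8.5, 7.44 and 6.39 at P1 and 12.6, 13.8 and 12.9 at 1W. Of 23 enzymes of fatty acid oxidation, 2 were transiently higher (Echs1 and Eci2) and 17 were higher than at E18.5 without being transient. Ppara, the receptor gene itself, was at 26.04, 22.8 and 23.2 CPM at E18.5, 15.7, 20.1 and 17.6 at P1 and 28.7, 26.2 and 27.3 at 1W, and lost its lower call without P1 replicate 1 (adjusted p = 0.0538, edgeR). Oxct1, which consumes ketone bodies, fell to its lowest age, at 424, 401 and 411 CPM at E18.5, 176, 168 and 202 at P1 and 295, 264 and 312 at 1W, and Bdh2, a small dehydrogenase, rose to its highest, at 0.244, 0.436 and 0.254 CPM at E18.5, 1.88, 2.19 and 1.89 at P1 and 0.524, 0.804 and 0.4699 at 1W.

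**Figure D4:**
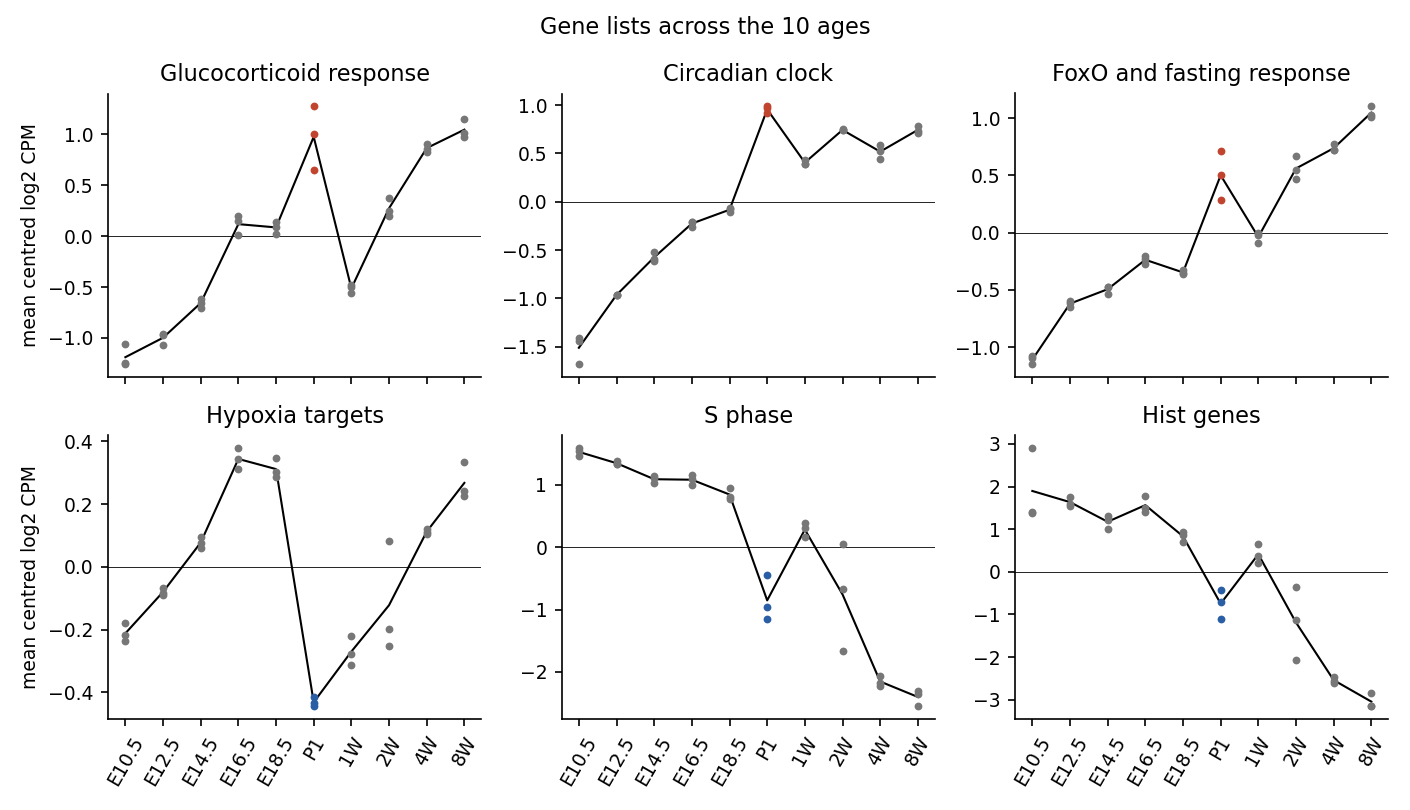
Mean over list members of log2 CPM centred per gene (y axis, 1 point per library, line through group means) at the 10 ages, with P1 coloured. The glucocorticoid, clock and FoxO lists rise at P1, to 0.913 to 0.986 for the clock, and the S phase and Hist lists dip between E18.5 and 1W. The glucocorticoid and FoxO lists rise again after 1W, to 0.977 to 1.149 and 1.011 to 1.102 at 8W. The S phase and Hist lists lie below their P1 level at 8W.

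Genes of DNA replication fell at P1 and were higher again at 1W. Of 30 S phase genes, 26 were transiently lower and none higher, with a median log2 contrast of -1.42, and the count was 23 to 27 with each library left out and 10 with the Y-transcript libraries alone. Cdc6, which loads the replicative helicase onto origins (chromosome 11, 98907801 to 98923940, GRCm38), was at 24.2, 17.01 and 18.3 CPM at E18.5, 2.04, 1.71 and 4.98 at P1 and 11.5, 12.5 and 12.98 at 1W. Its P1 libraries did not overlap with either flank, replicate 3 was the highest of them, and the log2 change was -2.76 ± 0.29 against E18.5 and -2.08 ± 0.29 against 1W (edgeR adjusted p = 1.16e-07 and 7.02e-06). Without that replicate the smaller change was -2.73. Ccne2, cyclin E2, which starts S phase, was at 27.4, 26.1 and 28.6 CPM at E18.5, 2.405, 3.35 and 3.88 at P1 and 9.02, 12.2 and 12.3 at 1W, and E2f1, the transcription factor of the S phase genes, at 17.9, 15.8 and 16 CPM at E18.5, 2.67, 3.65 and 4.37 at P1 and 9.82, 12.4 and 11.4 at 1W. Clspn, a mediator of the replication checkpoint, was at 25.9, 24.8 and 24.04 CPM at E18.5, 4.15, 4.37 and 6.26 at P1 and 15.2, 14.7 and 19.04 at 1W.

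The helicase subunits fell as a group. Mcm2 was at 107, 93.6 and 89.9 CPM at E18.5, 22.8, 21.4 and 39.1 at P1 and 69.3, 83.3 and 87.3 at 1W, Mcm5 at 78.3, 70.9 and 65.8 CPM at E18.5, 15.8, 17.6 and 30.8 at P1 and 53.2, 62.4 and 62.7 at 1W, and Mcm3 at 84.2, 77.4 and 73.7 CPM at E18.5, 19.4, 23.8 and 33.8 at P1 and 57.3, 61.4 and 64.7 at 1W. Mcm4, Mcm6 and Mcm7 fell by 1.00, 0.94 and 0.77 on the log2 scale against 1W, the smaller of their changes. In each of these 6 genes P1 replicate 3 was the highest of the 3 P1 libraries and still below all flanking ones. Pcna, the sliding clamp of the polymerases, was at 89.3, 87.2 and 87.4 CPM at E18.5, 27.3, 35.4 and 41.6 at P1 and 54.9, 65.1 and 64.3 at 1W, and Rrm2, a subunit of ribonucleotide reductase, at 117, 101 and 109 CPM at E18.5, 19.8, 30.01 and 35.3 at P1 and 70.1, 70.4 and 83.8 at 1W. Timeless, a replication fork protein, was at 21.8, 19.2 and 17.7 CPM at E18.5, 4.22, 3.17 and 6.93 at P1 and 17.9, 18.2 and 18.4 at 1W, and Fam111a, a protease tied to replication, at 18.9, 20.98 and 21.5 CPM at E18.5, 3.66, 3.21 and 4.17 at P1 and 13.4, 15.1 and 15.2 at 1W. P1 was the lowest of all 10 ages for both, below the adult heart. Dnmt1, which copies DNA methylation behind the fork, was at 196, 181 and 178 CPM at E18.5, 63.2, 64.5 and 83.3 at P1 and 133, 146 and 156 at 1W, and Ccnd1, cyclin D1 of the G1 phase, at 112, 113 and 104 CPM at E18.5, 58.1, 54.5 and 74.7 at P1 and 115, 126 and 136 at 1W, again lowest at P1. As a mean over the S phase list, P1 libraries stood at -1.155 to -0.451, E18.5 at 0.779 to 0.948 and 1W at 0.159 to 0.385 on centred log2 CPM.

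E2F sites (TTTCCCGC, TTTCGCGC, TTTGCCGC or TTTGGCGC, searched after the values were seen) were in 7 of 23 promoters of the 21 matched S phase genes that fell (30.4%). They were in 5.69% of promoters of all transiently lower genes, 2.11% of higher genes, 2.95% of genes tested and 1.86% of all promoters. Stretches with a site, in capitals, are shown for 2 of the replication genes above. Cdc6 is at chr11:98907993-98908040 and Mcm5 at chr8:75109336-75109387, both on the plus strand, where the capitals in Cdc6 are the site read on the other strand and those in Mcm5 are 2 overlapping sites.
Cdc6: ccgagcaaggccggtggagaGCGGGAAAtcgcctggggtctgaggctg
Mcm5: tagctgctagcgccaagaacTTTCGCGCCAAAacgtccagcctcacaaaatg

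Replication-dependent histone genes, which are made with the DNA they pack, fell too. This group, all genes whose symbol begins with Hist, was chosen after the values were seen. Of 64 tested, 43 were transiently lower and 1 higher, with a median log2 contrast of -1.55. The genes sit in clusters, and 36 of 50 fell in the cluster on chromosome 13 (21715763 to 23764406), 7 of 10 on chromosome 3 (96219865 to 96270132), and none of 3 on chromosome 11 or of 1 on chromosome 6. Hist2h3c2, a histone H3 gene, was at 106, 114 and 99.2 CPM at E18.5, 10.5, 14.8 and 19.9 at P1 and 60.9, 99.5 and 95.5 at 1W, and the log2 change was -2.82 ± 0.41 against E18.5 and -2.50 ± 0.40 against 1W (edgeR adjusted p = 1.14e-05 and 5.28e-05). Hist1h3b was at 146, 145 and 130.3 CPM at E18.5, 21.02, 35.98 and 31.02 at P1 and 87.3, 116 and 105 at 1W, Hist1h4b (histone H4) at 52.4, 43.3 and 43.9 CPM at E18.5, 6.26, 10.96 and 10.1 at P1 and 26.3, 39.6 and 34.5 at 1W, and Hist1h2ag (histone H2A) at 70.6, 64.4 and 55.5 CPM at E18.5, 8.73, 16.8 and 15.99 at P1 and 36.96, 60.2 and 53.7 at 1W. P1 lay below both flanks in every library of these genes. Slbp, which binds the stem-loop end of histone mRNAs and was named after its values were seen, fell with them, at 36.7, 33.1 and 36.3 CPM at E18.5, 14.6, 13.3 and 15.7 at P1 and 26.1, 26.1 and 26.8 at 1W.

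Most of these histone mRNAs carry no poly(A) tail, and near-identical copies share reads, so their levels in poly-T selected libraries are uncertain. The count of lower genes was 29 to 42 with each library left out, 29 with a term for sex, and 4 with the Y-transcript libraries alone. Of the 10 histone genes among the 15 leading lower genes, 7 lost their call with the Y-transcript libraries alone. The member called higher was Hist1h1c, a linker histone, at 290.5, 246 and 215 CPM at E18.5, 464, 576 and 397 at P1 and 279, 303 and 287 at 1W, and its call was lost without any of 8 single libraries. The promoter of Hist1h2ag, chr13:22042984-22043031 on the minus strand, is shown with its E2F site in capitals. It shares this window with the divergent gene Hist1h2bj, which fell too, at 40.6, 34.7 and 33.3 CPM at E18.5, 4.84, 7.85 and 6.71 at P1 and 20.8, 26.6 and 24.3 at 1W.
Hist1h2ag: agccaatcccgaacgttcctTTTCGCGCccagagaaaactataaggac

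Genes of mitosis fell at P1, and in the fit of all 30 libraries fewer of them passed the test against 1W. Of 30 G2/M genes, 19 were transiently lower and the other 11 were lower than at E18.5 without being transient, with a median log2 contrast of -1.36. In the fit of the 9 libraries alone 28 were transiently lower, as were 28 of the 30 S phase genes. The count of 19 became 10 without P1 replicate 1, 11 without P1 replicate 2, 10 without 1W replicate 3, 10 with a term for sex and 1 with the Y-transcript libraries alone. Top2a, which untangles chromosomes (chromosome 11, 98992943 to 99024189, GRCm38), was at 287, 277 and 301 CPM at E18.5, 50.6, 60.1 and 68.97 at P1 and 128, 133 and 160.3 at 1W, and the log2 change was -2.27 ± 0.33 against E18.5 and -1.23 ± 0.32 against 1W (edgeR adjusted p = 1.17e-05 and 0.00476). Mki67, the usual marker of dividing cells, was at 157, 188 and 198 CPM at E18.5, 49.3, 56.1 and 67.8 at P1 and 105, 118 and 137 at 1W, Aurka, a kinase of the spindle poles, at 43.4, 43.2 and 43.2 CPM at E18.5, 9.79, 12.8 and 10.6 at P1 and 19.5, 24.2 and 26.2 at 1W, and Prc1, which bundles the spindle midzone, at 101, 104 and 117 CPM at E18.5, 25.7, 27.4 and 28.1 at P1 and 52.2, 55.03 and 70.1 at 1W. Ccnf, a cyclin that directs protein breakdown in G2, was at 25.3, 26.5 and 23.9 CPM at E18.5, 3.097, 4.71 and 4.95 at P1 and 13.5, 15.6 and 16.1 at 1W, and Foxm1, a transcription factor of the mitotic genes named after its values were seen, at 46.9, 45.95 and 46.4 CPM at E18.5, 11.3, 14.6 and 14.7 at P1 and 25.5, 29.8 and 34.6 at 1W. In each of these genes P1 lay below all 6 flanking libraries and above the level of the adult heart. Top2a at 8W was at 4.92 CPM.

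Promoters of the mitotic genes were searched for the same E2F sites and for the letters CCAAT and TTTGAA. The letters CCAAT were in 17 of 19 promoters of the 17 matched G2/M genes that fell (89.5%), 40.3% of promoters of transiently lower genes, 35% of higher genes, 34.6% of genes tested and 33.8% of all. They were also in 73.9% of the promoters of S phase genes and 82.1% of those of Hist genes that fell. TTTGAA, known as the cell cycle homology region, was in 7 of those 19 (36.8%), 41% of promoters of Hist genes and 13% of those of S phase genes that fell. It was in 11.3% of promoters of genes tested and 16% of all promoters, and an E2F site was in none of the 19. These motifs were added after the values were seen. The Top2a promoter, chr11:99024223-99024436 on the minus strand, held 6 CCAAT letters on either strand, in capitals.
Top2a: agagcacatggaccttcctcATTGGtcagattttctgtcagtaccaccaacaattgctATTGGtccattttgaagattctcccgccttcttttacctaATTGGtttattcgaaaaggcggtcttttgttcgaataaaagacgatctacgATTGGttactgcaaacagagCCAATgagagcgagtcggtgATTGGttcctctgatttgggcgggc

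Inhibitors of the cell cycle did not move as a group. Of 19 inhibitors and p53 targets, 3 were transiently higher (Cdkn1b, Btg2 and Trp53inp1) and 3 lower (Cdkn2c, Ccng1 and Zmat3). Cdkn1b, p27, was at 52.3, 52.8 and 57.2 CPM at E18.5, 75.4, 89.4 and 65.5 at P1 and 57.4, 55.8 and 54.1 at 1W, and its log2 change was 0.51 ± 0.08 against E18.5 and 0.46 ± 0.08 against 1W (edgeR adjusted p = 1.26e-05 and 5.53e-05). Trp53inp1, a p53-induced protein of autophagy and arrest, was at 25.4, 28.1 and 28.5 CPM at E18.5, 77.8, 94.2 and 70.2 at P1 and 42.6, 32.8 and 35.9 at 1W. Cdkn2c, p18, fell with the replication genes, at 32.9, 32.6 and 28.04 CPM at E18.5, 14.3, 16.5 and 16.4 at P1 and 30.8, 36.1 and 36.5 at 1W. Cdkn1a, p21, was at 17.3, 17.5 and 18.5 CPM at E18.5, 33.4, 32.2 and 22.1 at P1 and 26.1, 29.8 and 27.6 at 1W, higher than at E18.5 and not called against 1W (adjusted p = 0.803, edgeR).

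Genes induced by low oxygen fell at P1. Of 28 hypoxia targets, 10 were transiently lower, 2 higher (Mxi1 and Hmox1) and 10 lower than at E18.5 without being transient, with a median log2 contrast of -0.28 (10 in every run that left out a library, 8 with the Y-transcript libraries alone). Ankrd37, a small HIF target, was at 2.68, 3.004 and 2.596 CPM at E18.5, 0.527, 0.273 and 0.417 at P1 and 1.6, 2.49 and 1.81 at 1W. P1 was its lowest age, and the log2 change was -2.75 ± 0.29 against E18.5 and -2.26 ± 0.30 against 1W (edgeR adjusted p = 6.12e-09 and 3.42e-07). P4ha1 and P4ha2, the prolyl hydroxylases of collagen, were at 95.4, 85.6 and 91.1 CPM at E18.5, 25.2, 23.9 and 25.9 at P1 and 45.9, 50.5 and 53.2 at 1W and at 38.8, 36.9 and 37.8 CPM at E18.5, 15.9, 16.97 and 16.6 at P1 and 29.1, 28.2 and 28.3 at 1W. Egln1 and Egln3, the oxygen sensors that mark HIF for breakdown, were at 126, 123 and 118 CPM at E18.5, 96.03, 86.7 and 96.3 at P1 and 142, 146 and 143 at 1W and at 69.9, 68.3 and 64.7 CPM at E18.5, 24.4, 27.4 and 19.9 at P1 and 30.2, 36.95 and 29.8 at 1W. In all of these the P1 libraries lay below both flanks.

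Glycolysis overlapped with that list in 10 genes, among them Hk2, Pkm and Ldha. Of 25 tested, 6 were transiently lower (Hk2, Pfkl, Pgam1, Pgam2, Pkm and Ldha), 11 lower than at E18.5 without being transient and 1 higher, Ldhb, which lost its call whichever library was left out. Pgam1 and Pgam2 lost their calls without single libraries, and the count of 6 became 3 with the Y-transcript libraries alone. Hk2, the hexokinase of insulin-sensitive tissue, was at 192, 188 and 185 CPM at E18.5, 75.05, 71.5 and 81.9 at P1 and 199.7, 204 and 177 at 1W. Its log2 change was -1.30 ± 0.12 against E18.5 and -1.34 ± 0.12 against 1W (edgeR adjusted p = 1.28e-10 and 7.32e-11). Pfkl, a phosphofructokinase subunit, was at 203, 201 and 190.4 CPM at E18.5, 62.1, 71.3 and 63.2 at P1 and 146, 157 and 143 at 1W, Pkm, pyruvate kinase, at 1329, 1275 and 1248 CPM at E18.5, 811, 842 and 903 at P1 and 1142, 1225 and 1174 at 1W, and Ldha, the lactate dehydrogenase of fermenting tissue, at 1157, 1069 and 1001 CPM at E18.5, 455, 471 and 528 at P1 and 645, 668 and 625 at 1W. P1 was the lowest of the 10 ages for all 4. Slc16a3, the lactate exporter, showed the lasting form of the change, at 61.5, 61.3 and 57.98 CPM at E18.5, 5.76, 5.804 and 6.81 at P1 and 7.2, 7.89 and 8.01 at 1W, and was not called against 1W (adjusted p = 0.0907, edgeR).

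Matrix and chaperone genes held smaller groups of lower genes. Of 29 fibrillar matrix genes, 4 fell (Has2, Tnc, Loxl2 and Col6a3) and none rose. Has2, hyaluronan synthase, was at 5.86, 5.503 and 6.55 CPM at E18.5, 1.19, 0.922 and 2.02 at P1 and 4.25, 4.07 and 3.83 at 1W, with a log2 change of -2.10 ± 0.21 against E18.5 and -1.54 ± 0.21 against 1W (edgeR adjusted p = 1.83e-09 and 8.08e-07), and Tnc, tenascin C, at 269, 249 and 216 CPM at E18.5, 107, 131 and 134 at P1 and 199, 231 and 238 at 1W. Of 12 fibroblast markers, 1 was transiently higher, 1 lower and 10 neither. Their median log2 change at P1 was 0.04 against E18.5 and -0.82 against 1W. In the contrast of P1 with the mean of both flanks 8 were lower and 1 higher. The sum of these markers was 6690 to 7089 CPM at E18.5, 6404 to 8681 at P1 and 11370 to 11840 at 1W, with none at 0. Their part in the matrix genes was not tested. Timp3, a paralog of Timp4 named after its values were seen, was at 205, 187 and 208 CPM at E18.5, 381, 419.9 and 278 at P1 and 175, 179.8 and 192 at 1W. Of 22 chaperones, 4 fell (Hspa1b, Hsph1, Hsp90b1 and Pdia4), which became 1 with library size alone or without P1 replicate 2, 2 with a term for sex or without 1W replicate 2 or 3, and 0 with the Y-transcript libraries alone. Pdia4, a disulfide isomerase of the endoplasmic reticulum, was at 109.9, 103 and 110.0 CPM at E18.5, 55.3, 54.4 and 54.7 at P1 and 67.8, 78.5 and 73.6 at 1W.

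The contractile, respiratory and ribosomal lists held few transient genes. Of 30 sarcomere genes, Tnnt2 was transiently higher and Nebl lower, and both lost their call without single libraries. No gene of 30 nuclear subunits of respiratory complex I and none of 34 cytosolic ribosomal protein genes was transient in either direction, with median log2 contrasts of -0.06 and 0.25. In the fit of the 9 libraries alone 5 ribosomal protein genes were transiently higher. In the fit of all 30 libraries, 15 of the 34 were higher in the contrast with the mean of both flanks and none lower. In that contrast 18.7% of all genes were higher. The transient counts of the fit of all 30 libraries stand against 7.88% of all genes higher and 8.88% lower.

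**Figure D5:**
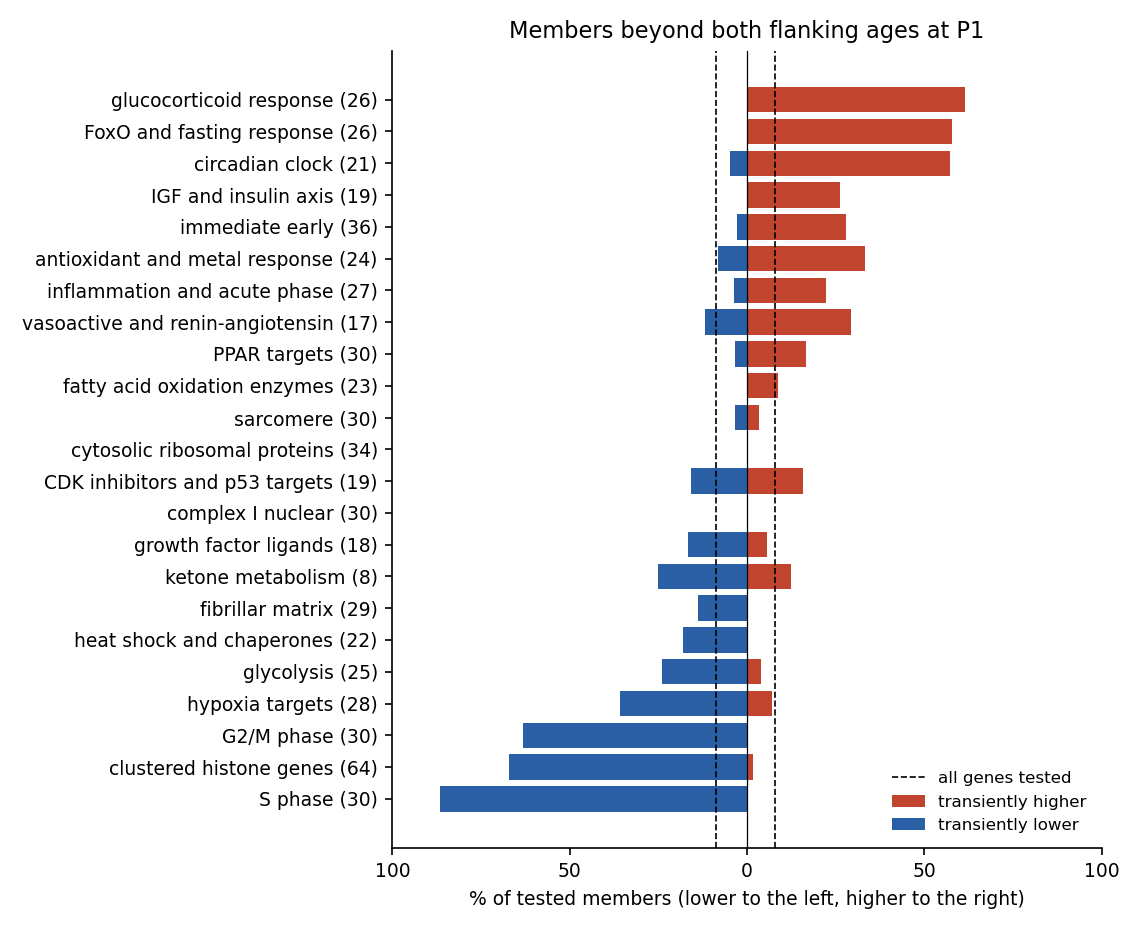
Share (%) of tested members of each gene list that were transiently higher (red, right) or lower (blue, left) at P1, with the number tested in brackets and dashed lines at the shares of all genes (7.88% and 8.88%). The S phase, G2/M and Hist lists reach furthest to the left and the glucocorticoid, clock and FoxO lists furthest to the right.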

How the data were processed

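Hearts of 10 ages were profiled by poly(A)-selected RNA sequencing with 3 libraries per age, and the 9 libraries of E18.5, P1 and 1W were compared here. The authors deposited 1 table of expected counts that covers 30 libraries, and 6.94% of its entries differed from a whole number by more than 1e-06. Every entry was rounded here. STAR 2.5.3a, fastp 0.18.0, mm10 and GRCm38 are listed, with no roles, per the submitters' processing notes. Counting tool, annotation release and strand setting were not given in the sources used here, and hence overlapping, antisense and near-identical genes are uncertain. GENCODE M21 gave symbols and places to 48058 of 48820 genes by identifier.

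All 30 libraries (23164934 to 50519452 counts) were fitted as 10 group means with 20 residual degrees of freedom in edgeR 4.0.16 (R 4.3.3) with filterByExpr, TMM factors and robust quasi-likelihood F tests. P-values were adjusted by Benjamini-Hochberg over 19280 genes. Scripts were tested on simulated data. Promoters came from RefSeq (GRCm38.p6). Figures were drawn with matplotlib 3.10.9 and tables handled with pandas 2.3.3 (Python 3.11.15).

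Gene lists and cell type markers are described by counts and medians, without set tests. The members, lists and rules were chosen with earlier results of these data known. Leading genes were the 15 largest transient changes each way with at least 10 CPM in the higher group or groups, no overlap of libraries and no gene model name. Other named genes were the list members with the largest changes, a panel of heart genes, and members of counts of 5 or fewer. Some genes that the rule names are not reported here. Genes described as named after their values were seen fall outside this rule, apart from Glul and Mthfd2, which it also names. Outside it too are Ccn1, Klf6, Klf10, Tef, Cry2, Nfil3, Nr1d2, Sgk1, Ddit4, Cebpd, Foxo3, Map1lc3b, Gabarapl1, the Mcm genes, Pcna, Rrm2, Dnmt1, Ccnd1, Egln1, Egln3, Nfe2l2 and Clock.

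The alternatives were other scaling factors (RLE, library size alone, upper quartile), no filter, a minimum of 1 CPM in 3 libraries, the omission of globin and mitochondrially encoded genes, a replicate block, a term for sex, the 9 libraries alone, DESeq2 1.42.0, a 2-fold minimum and each of the 9 libraries left out. Protein-coding genes only and the Y-transcript libraries alone were added after the data were seen. A library was said to hold Y-linked transcripts where 4 such genes summed to 10 CPM or more, and Xist where it reached 50 CPM. Groups of 3 libraries were too small for a test of outlying samples.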

Additional observations from a re-analysis of the deposited data

How the results depend on the processing

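The contrast called 7195 genes, and 1520 genes were transiently higher and 1712 lower. RLE and upper quartile factors, library size alone, both filters, mitochondrially encoded and globin genes left out, the term for sex, protein-coding genes only, the 9 libraries alone and DESeq2 all gave counts within 1.5 times of these. With each library left out the contrast called 5669 to 6780 genes, with 1150 to 1403 transiently higher and 1335 to 1720 lower. With the Y-transcript libraries alone, where the lone E18.5 and 1W libraries were assumed to vary like the other groups, it called 4162, with 446 higher and 613 lower. With a 2-fold minimum the counts were 1448, 261 and 318. No gene turned its direction. The labels give replicate numbers, and libraries of different ages with the same number correlated at -0.065 to 0.114 in their deviations from group means, so the numbers were not taken to pair them. With a replicate block the counts were 7365, 1586 and 1753.

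Over the 168 genes named in the text and 21 settings, 3305 of 3526 values kept their side of the threshold, 212 lost it and 9 passed it, and 95 genes kept it in every setting. The 70 genes that lost their call, or their contrast where they were not transient, with the Y-transcript libraries alone were Acot2, Agt, Ahsg, Angpt1, Aurka, Bhlhe40, Brca1, C1qb, C1qc, Calcrl, Ccng1, Cma1, Dbp, Echs1, Edn1, Ednra, Ednrb, Egln3, Ehhadh, Fkbp5, Fos, Foxm1, G0s2, Glul, Hdc, Hist1h1c, Hist1h2ag, Hist1h3b, Hist1h4b, Hmox1, Hsp90b1, Hspa1b, Hsph1, Ier3, Igf1r, Igfbp6, Inhba, Irs1, Kit, Ldha, Ldhb, Mcm6, Mcm7, Mki67, Mt2, Mthfd2, Nebl, Nfe2l2, Nr1d2, Pcna, Pdia4, Pgam1, Pgam2, Pnpla2, Ppara, Prc1, Ramp2, Rbm3, Retnlg, Rrm2, S100a8, S100a9, Serpina3n, Socs3, Tat, Tnnt2, Top2a, Tpsb2, Txnrd1 and Zmat3. In at least 1 other setting 33 genes did so, which were Ahsg, Bhlhe40, Btg2, C1qb, C1qc, Cma1, Dbp, Ednra, Ednrb, Ehhadh, Fkbp5, Fos, Hist1h1c, Hsp90b1, Hspa1b, Hsph1, Igf1r, Igfbp6, Ldhb, Mt2, Nebl, Pgam1, Pgam2, Pnpla2, Ppara, Ramp2, Rbm3, Retnlg, S100a9, Tnnt2, Tpsb2, Txnrd1 and Zmat3. Of these, Pnpla2, Ahsg, Fkbp5 and Bhlhe40 lost their call in the fit of the 9 libraries alone. With library size alone, Bhlhe40, Cma1, Ednra, Ednrb, Hsp90b1, Hspa1b, Hsph1, Igf1r, Ldhb, Pgam1, Pgam2, Ramp2, Tnnt2 and Txnrd1 lost it. With the term for sex, Bhlhe40, Cma1, Ehhadh, Hist1h1c, Hsp90b1, Hspa1b, Igfbp6, Ldhb, Mt2, Nebl, Pgam1, Pgam2, Retnlg, Tnnt2 and Txnrd1 lost it. Examples from the runs that left out a library were Ednrb without P1 replicate 3 and Fos, which lost its contrast without P1 replicate 1 or 3. Others were Ramp2 without any of 5 single libraries (the 3 of E18.5 and P1 replicates 1 and 2) and Btg2 without 1W replicate 1. Hsph1 lost its call without P1 replicate 2, and Zmat3 without E18.5 replicate 1 or P1 replicate 2. The cause was not tested.

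The number of libraries, 3 per age, limits the precision, and genes with 1 CPM or less in some libraries (such as Bdh2, Tat, Lcn2, S100a8, Retnlg, Ciart and Ankrd37) rest on few counts there. The sex of the P1 libraries, all with Y transcripts, cannot be fully told apart from the age.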

Other observations

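Some genes that changed at P1 belong to none of the lists described above, and the 9 given here were chosen after their values were seen. Clu, the chaperone clusterin, was at 95.4, 89.7 and 84.8 CPM at E18.5, 206, 221 and 178 at P1 and 122, 127 and 119 at 1W, and Selenop, the selenium carrier, at 119.7, 125 and 123 CPM at E18.5, 259, 292 and 186 at P1 and 156, 149 and 154 at 1W. Tgfbi, a matrix protein induced by TGF-beta, was at 43.6, 44.5 and 40.7 CPM at E18.5, 68.99, 88.1 and 77.5 at P1 and 33.9, 33.5 and 31.9 at 1W, and Adamts1, a protease of proteoglycans, at 109, 112 and 109.9 CPM at E18.5, 199, 238 and 164 at P1 and 72.8, 92.7 and 88.9 at 1W. Lbp, which binds bacterial lipopolysaccharide, was at 9.06, 8.002 and 8.27 CPM at E18.5, 20.5, 25.7 and 16.8 at P1 and 5.27, 5.38 and 5.62 at 1W, and its log2 change was 1.32 ± 0.13 against E18.5 and 1.95 ± 0.14 against 1W (edgeR adjusted p = 2.49e-09 and 1.16e-12). In all 5 genes the P1 libraries lay above all 6 flanking ones. Pim3, a survival kinase, was at 20.04, 22.7 and 18 CPM at E18.5, 53.1, 63.5 and 40.9 at P1 and 20.8, 23.8 and 21.4 at 1W, and Bcl2l1, an inhibitor of apoptosis, at 29.8, 26.8 and 27.7 CPM at E18.5, 47.6, 51.9 and 42.2 at P1 and 29.3, 27.6 and 33.3 at 1W.

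Brca1, a protein of DNA repair, was at 31.4, 29.3 and 30.4 CPM at E18.5, 5.54, 6.49 and 9.79 at P1 and 14.2, 15.8 and 17.3 at 1W, with a log2 change of -2.06 ± 0.27 against E18.5 and -1.11 ± 0.27 against 1W (edgeR adjusted p = 2.4e-06 and 0.00237). Mthfd2, the mitochondrial folate enzyme of proliferating cells, was at 10.98, 12.1 and 10.6 CPM at E18.5, 1.94, 3.14 and 2.697 at P1 and 4.39, 6.31 and 6.29 at 1W, lowest at P1 among the 10 ages. Their P1 libraries were below all flanking ones, and both lost their call with the Y-transcript libraries alone (adjusted p = 0.125 and 0.225, edgeR).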
